A study of Mus musculus with 472 samples.

Results

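Most retinal ganglion cells carry Pou4f1, and a minority do not reach a level at which it counts as positive. In this series, 51 of the patched cells with both Rbpms and Slc17a6 were of that kind (12.4%, exact 95% interval 9.38% to 15.99%), and they made up 10.8% of all cells of the series. They were chosen by 3 values per cell. Counts were scaled to 1000000 gene counts in each cell (CPM, spike-in RNAs left out), Rbpms and Slc17a6 had to reach 10 CPM or more, and Pou4f1 had to stay below 10 CPM. The other 360 cells with both genes had Pou4f1 at 10 CPM or more and served as the comparison. A further 61 cells did not reach the limit for Rbpms or Slc17a6 and were not used. In what follows the 51 cells are called Pou4f1-low and the 360 cells Pou4f1-positive, and positive means a level of 10 CPM or more.

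All cells came from C57BL/6J mice aged 7 to 9 weeks and form 1 group, with no genotype or treatment to tell them apart. Per the labels' protocols, a flat-mounted retina was used, a cell was patched and its light responses were recorded, and its aspirated content was amplified by Smart-seq2, which copies whole transcripts and tags no single molecules. The labels name no animal. The cells therefore count as 1 sample, no difference was tested, and every interval below covers counting error within these cells only. An aspirated content also cannot separate a gene that was off from RNA that was not collected.

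Pou4f1 encodes Brn3a, a POU-domain transcription factor of sensory and projection neurons. With its relatives Pou4f2 (Brn3b) and Pou4f3 (Brn3c) it acts in the differentiation and survival of ganglion cells, and each of them is kept in a different set of adult types. Melanopsin ganglion cells, which sense light by themselves, are known as a class in which Brn3a is largely missing.

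The label "without Pou4f1" holds only in part. Pou4f1 (mm10 chromosome 14, 104461676 to 104467999) had 0 counts in 14 of the 51 cells and more than 0 in 37. Its median over the 51 was 0.794 CPM and its highest value 9.79 CPM, whereas in the Pou4f1-positive cells it ran from 10.5 to 1565 CPM with a median of 90.5 CPM. These values made the choice and are a description. Just inside the limit, at 5 CPM or more, stood 15 Pou4f1-low cells, with a median of 5892 positive genes. Just outside it, below 20 CPM, stood 19 Pou4f1-positive cells, with a median of 5606. The 2 sides meet at the limit without a gap.

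Fewer genes were positive in the Pou4f1-low cells. Their number of positive genes ran from 725 to 7522 with a median of 5137 and quartiles of 3678.5 and 6073.5. In the Pou4f1-positive cells it ran from 1571 to 8937 with a median of 5853 and quartiles of 4656 and 6718.25. The intervals of the medians, 4137 to 5747 and 5710 to 6044, overlapped slightly. Depth differed little, with a median of 5284523 gene counts per cell on one side and 5249231 on the other. Pou4f1-low cells made up 12 of the 37 cells with under 3000 positive genes (32.4%, 18.01% to 49.8%), and 13 of those with 6000 or more (7.30%, 3.95% to 12.2%). Ribosomal RNA loci held a median share of 22.2% of gene counts in Pou4f1-low cells and 15.7% in Pou4f1-positive cells, mitochondrial genes 0.372% and 0.327%, and the ERCC spike-in RNAs 0.837% and 0.662% of all counts.

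**Figure D1:**
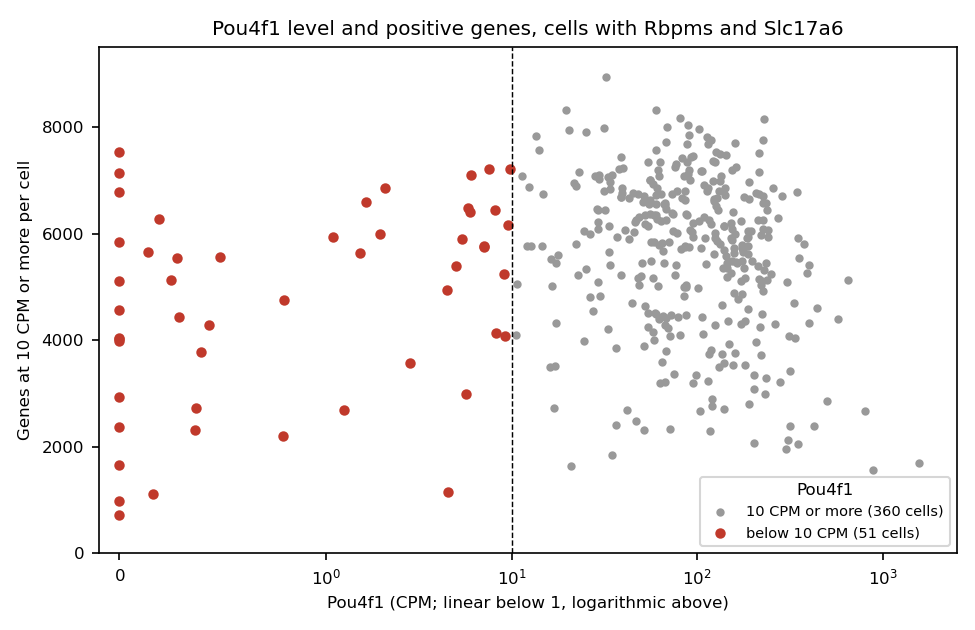
Each point is 1 cell with both Rbpms and Slc17a6, placed by its Pou4f1 level (CPM, linear below 1 and logarithmic above) and its number of genes at 10 CPM or more. The 51 Pou4f1-low cells (red) reach down to 725 positive genes and up to 7522, and the dashed line marks the limit of 10 CPM.

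By the letters and digits that open their library numbers, the library names fall into 5 sets, called A to E here. Neither the labels nor the files say what these sets stand for. Pou4f1-low cells were found in each of them: 23 cells in A (10.4% of its cells with both genes), 13 of 85 in B, 7 of 53 in C, 7 of 33 in D and 1 of 19 in E. The 7 cells of set D stood apart, with a median of 1152 positive genes against 5957 in the Pou4f1-positive cells of that set. Medians in A were 5118 and 6044.5 and in B 4570 and 5453, while in C the Pou4f1-low cells were at 5838 and the others at 5675. Because a cell with few positive genes lowers the share of nearly every gene, many shares in Pou4f1-positive cells are also given matched. For a matched share these cells were weighted so that the classes with under 3000, under 4500, under 6000, and 6000 or more positive genes had the proportions seen in the Pou4f1-low cells. Whether the remaining differences within a class carry detection effects was not tested.

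Most ganglion cell genes were nearly as common in the Pou4f1-low cells as in the others. Of 14 pan-RGC genes, 2 of which were part of the rule, the median cell was positive for 13 on both sides, and the lowest cell for 6 among the Pou4f1-low and 8 among the Pou4f1-positive cells. Thy1 and the neurofilament gene Nefl were positive in 51 of 51 cells, Nefm in 50, and Sncg and Uchl1 in 49 each. Tubb3, a neuronal tubulin, was positive in 45 cells (88.2%, against 96.1% of Pou4f1-positive cells, 93.2% matched) and Isl1, a LIM-homeodomain factor that works with the Pou4f proteins, in 40 (78.4%, against 84.2%, 76.6% matched). Gap43, a growth-cone protein gene, was positive in 72.5% and 87.2% (79.5% matched), and Nrn1, a neuritin gene, in 80.4% and 94.7% (91.2% matched). By these markers the cells match the ganglion cell part of their label.

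The other members of the Pou4f family were not more common in the Pou4f1-low cells. Pou4f2 was positive in 15 Pou4f1-low cells (29.4%, 17.5% to 43.8%), against 30.3% of Pou4f1-positive cells (23.9% matched). In 14 of the 15 its level lay between 14.8 and 99.7 CPM, and a single cell of set D reached 1099.5 CPM, above the 424.9 CPM that was highest in any Pou4f1-positive cell. That cell had 725 positive genes, the fewest of all 51, and its spike-in share of 11.9% compares with a median of 0.837%. Pou4f3 was positive in 4 Pou4f1-low cells (7.84%, 2.18% to 18.9%), against 30% (25.3% to 35.02%; 23.7% matched). Its levels there were 18.3, 90.7, 165.2 and 335.4 CPM, and all 4 cells came from set A. The share of Pou4f3 was lower than in the Pou4f1-positive cells, while that of Pou4f2 differed by less than its interval.

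Of the Pou4f1-low cells, 33 (64.7%, 50.1% to 77.6%) were positive for none of the 3 Pou4f genes. The remaining 18 held 14 with Pou4f2 alone, 3 with Pou4f3 alone and 1 with both. Among Pou4f1-positive cells, 49.2% (43.9% to 54.5%; 59.2% matched) lacked both relatives, so the intervals overlap. Of the others on that side, 75 had Pou4f2 alone, 74 had Pou4f3 alone and 34 had both. The cells that lacked both relatives had a median of 4950 positive genes among the Pou4f1-low and 5313 among the Pou4f1-positive.

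The gene whose share differed most among the class factors was Satb1, a chromatin-organising transcription factor (chromosome 17, 51736187 to 51833290). It was positive in 6 of 51 Pou4f1-low cells (11.8%, 4.44% to 23.9%) and in 180 of 360 Pou4f1-positive cells (50%, 44.7% to 55.3%; 46.02% matched). Its values in the 6 cells were 16.4, 20.2, 51.6, 88.1, 101.8 and 138.7 CPM, and 4 of the 6 came from set B. In the other 45 cells it lay below 10 CPM, with 0 counts in 30. The share was lower in every set: 1 of 23 against 97 cells (48.99%) in A, 4 of 13 against 41 of 72 in B, 1 of 7 against 25 of 46 in C, 0 of 7 against 10 of 26 in D, and 0 of 1 against 7 of 18 in E. In the annotation Satb1 overlaps 5 genes on its own strand and 1 on the other, and how the deposited counting shared such reads is not known here.

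Other class factors were also less common. Tfap2d, an AP-2 family factor, was positive in 9 Pou4f1-low cells (17.6%, 8.40% to 30.9%) against 41.4% (35.5% matched). Tbr1, a T-box factor that marks the T-RGC group, was positive in 2 cells, at 14.9 and 33.2 CPM (3.92%, 0.478% to 13.5%), against 20.3% (17.5% matched). Foxp2 was positive in 1 cell (1.96%) against 8.89% (8.99% matched), and Neurod2 in 3 (5.88%) against 15.6% (13.1% matched), with overlapping intervals for both. Bnc2 and Irx4 stood at 15.7% and 11.8% against 27.2% and 16.9% (23.8% and 14.3% matched), and Foxp1 at 17.6% against 20% (15.4% matched), each within the interval of the smaller group.

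A few factors went the other way, with overlapping intervals in each case. Irx3, an Iroquois homeobox factor, was positive in 11 Pou4f1-low cells (21.6%, 11.3% to 35.3%) against 15.6% (13.9% matched). Eomes, the T-box factor of the melanopsin lineage, was positive in 6 (11.8%) against 7.78% (6.42% matched), Zic1 in 4 (7.84%) against 3.06% (2.57% matched), and Tbx20 in 2 (3.92%) against 2.78% (2.41% matched). The median Pou4f1-low cell was positive for 1 of 12 class factors and the median Pou4f1-positive cell for 2. None of the 12 was positive in 12 Pou4f1-low cells (23.5%, 12.8% to 37.5%), against 9.44% (6.63% to 12.9%; 14.02% matched), with intervals that overlapped. Those 12 cells had a median of 2863 positive genes, against 5137 over all 51.

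Among factors of ganglion cell fate, Isl2, a LIM-homeodomain factor, was positive in 10 Pou4f1-low cells (19.6%, 9.82% to 33.1%) against 48.1% (42.8% to 53.4%; 40.99% matched). Barhl2, a homeobox factor, was positive in 17.6% against 43.6% (34.7% matched), and Ebf1 in 74.5% against 92.8% (86.1% matched). Onecut1, known from horizontal and ganglion cells, was positive in 14 cells (27.5%, 15.9% to 41.7%) against 18.3% (13.2% matched), and these intervals overlap. Sox11 was at 43.1% on both sides (37.3% matched). Isl2 was lower in all 5 sets, and its 10 positive Pou4f1-low cells had 12.5 to 158.9 CPM.

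**Figure D2:**
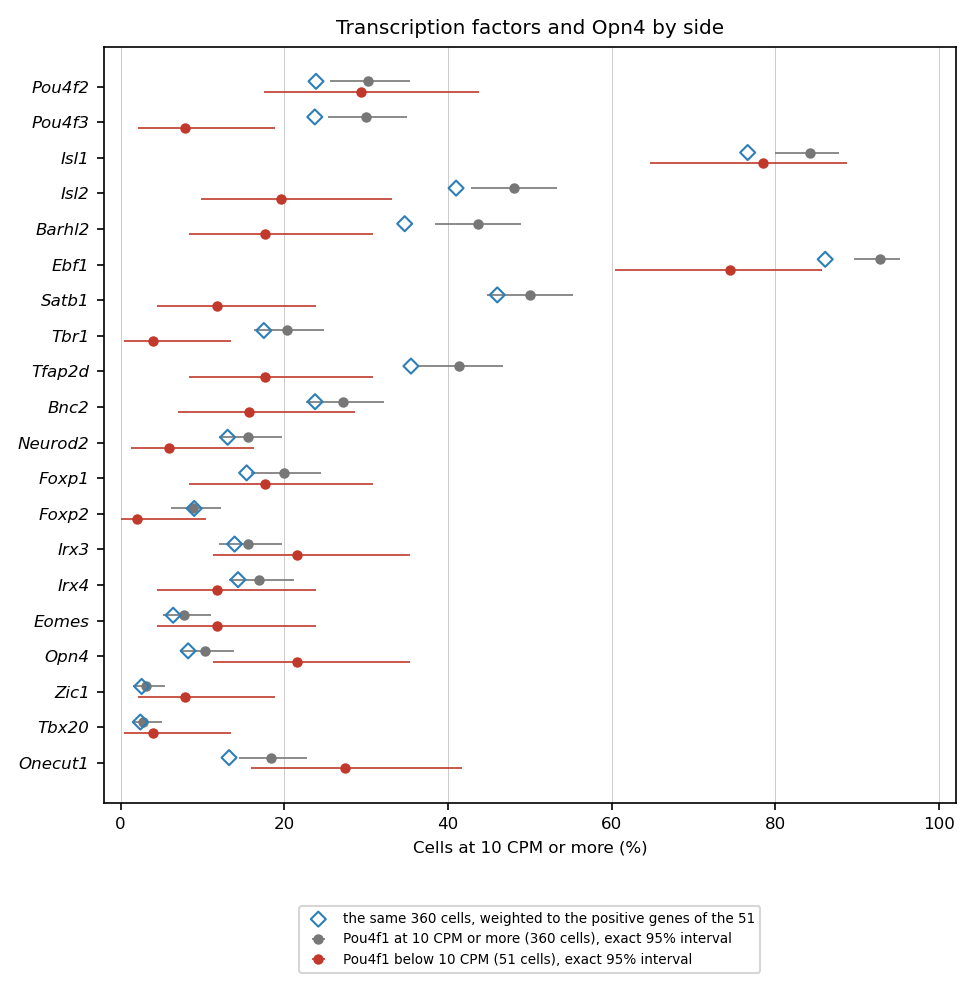
Shares of cells at 10 CPM or more (%) for 19 transcription factors and Opn4, with exact 95% intervals, in the 51 Pou4f1-low cells (red) and the 360 Pou4f1-positive cells (grey), and the matched share (blue diamonds). Satb1 is at 11.8% against 50%, and Pou4f3, Isl2, Barhl2, Tbr1, Tfap2d and Ebf1 are among those that also lie left of the grey intervals. Opn4, at 21.6% against 10.3%, Onecut1, Zic1 and Irx3 are among those to the right, each with red and grey intervals that overlap.

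Melanopsin genes marked a small number of Pou4f1-low cells, at high levels. The melanopsin gene Opn4 (chromosome 14, 34590618 to 34600142) reached 10 CPM in 11 of them (21.6%, 11.3% to 35.3%) against 10.3% (7.34% to 13.9%; 8.25% matched), so the intervals of the shares overlap. The highest levels differed more. A level of 1000 CPM or more was reached in 2 Pou4f1-low cells and in 0 of 360 Pou4f1-positive cells, where the highest value was 332.9 CPM. At 100 CPM or more stood 6 of 51 (11.8%) and 12 of 360 (3.33%).

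Both cells of highest Opn4 came from set B and carried other melanopsin-class genes. The first had 5645 CPM of Opn4, 413.6 of Eomes, 1176 of Trpc7, a cation channel of the melanopsin response, and 353.8 of Rasgrp1, and no count of Pou4f1. The second had 3250 CPM of Opn4, 283.7 of Eomes, 471.8 of Trpc7, 961 of Rasgrp1 and 74.1 of Tbx20, with 0.393 of Pou4f1. Neither had a count of Nefh or Pvalb, genes of the alpha list that were positive in most cells of both sides. They had 1651 and 3780 positive genes, below the median of the 51 cells. A further cell of set B combined 111.9 CPM of Opn4 with 459.03 of Tbx20 and 118.8 of Trpc7, at 1.95 CPM of Pou4f1 and only 2.17 of Eomes.

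The remaining Opn4-positive cells were not of 1 kind. Opn4 ran from 11.9 to 141.8 CPM in the other 8. One of them, in set A, had 114.7 CPM of Opn4 beside 2442 of Spp1 and 477.6 of Kcng4, genes of alpha cells. Trpc7 was positive in 5 Pou4f1-low cells (9.80%, 3.26% to 21.4%), all of set B, and in 1.67% of Pou4f1-positive cells (0.614% to 3.59%, 1.22% matched). A level of 100 CPM or more was reached in 4 against 1 cells. Of the 5 cells, 3 were positive for Opn4. The others had 173.6 and 28.2 CPM of Trpc7 beside 0.163 and 0.138 CPM of Opn4, and the first of them had 1464 CPM of Spp1. Rasgrp1 was positive in 27.5% (15.9% to 41.7%) and 12.8% (9.51% to 16.7%; 9.49% matched). At least 3 of 10 melanopsin-class genes were positive in 23.5% of Pou4f1-low cells (12.8% to 37.5%), against 17.2% (12.1% matched). The list holds Plcb4 and Adcyap1, which were positive in 70.6% and 29.4% of Pou4f1-low cells, so 3 positive genes do not make a melanopsin cell.

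Alpha-class genes were about equally common on both sides. Spp1, which encodes osteopontin, was positive in 24 Pou4f1-low cells (47.1%, 32.9% to 61.5%) against 48.1% (45.1% matched), and reached 1000 CPM in 11 (21.6%) against 85 (23.6%). Those 11 cells had 1066 to 3800 CPM, 9 of them in set A and 2 in B. The potassium channel gene Kcng4 was positive in 27.5% against 28.9% (22.4% matched), and the sodium channel subunit gene Scn4b in 33.3% against 41.1% (33.9% matched). Nefh was positive in 76.5% against 82.8% (75.9% matched) and Pvalb in 70.6% against 82.8% (79.3% matched). Spp1 and Kcng4 met in 12 Pou4f1-low cells. At least 3 of 8 alpha genes were positive in 50.98% (36.6% to 65.2%) against 57.8% (51.4% matched), and without set A these shares were 32.1% and 41.4%. The list holds Nefh and Pvalb, each at 82.8% in Pou4f1-positive cells, so 3 positive genes do not make an alpha cell.

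Genes of other named classes were less common or rare. Cartpt, a neuropeptide gene of ON-OFF direction-selective cells, was positive in 21 Pou4f1-low cells (41.2%, 27.6% to 55.8%) against 62.8% (57.6% to 67.8%; 61.7% matched). At least 3 of 7 genes of that class were positive in 25.5% (14.3% to 39.6%) against 45% (39.8% to 50.3%, 41.8% matched). These 7 include Cartpt and Calb2, both positive in most Pou4f1-positive cells, so 3 positive genes do not name the class of a cell. For the T-RGC genes, 2 or more of 4 were positive in 7.84% (2.18% to 18.9%) against 19.7% (15.8% matched). At least 3 of 5 genes were positive in 3.92% against 5% for the F-RGC list, within counting error. Among cells with at least 3000 positive genes, 39 of them Pou4f1-low, the direction-selective share was 33.3% against 45.97% and the T-RGC share 10.3% against 20.9%.

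**Figure D3:**
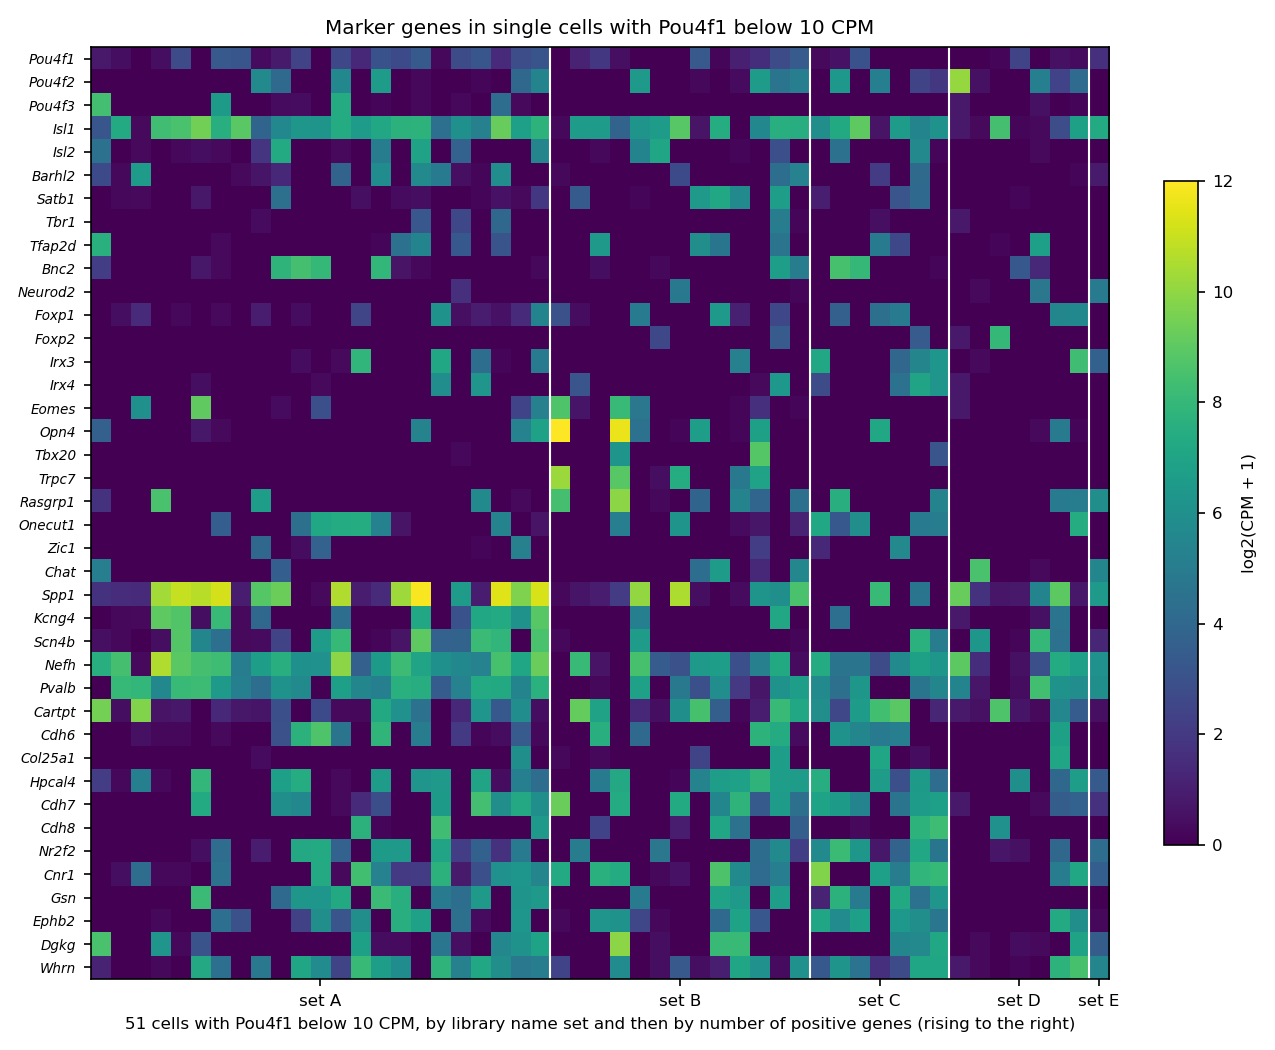
Levels of 40 genes, as log2(CPM + 1), in each of the 51 Pou4f1-low cells, ordered by set and then by number of positive genes. Spp1 at 1000 CPM or more stands in 9 cells of set A and 2 of B, Opn4 at 3250 and 5645 CPM in 2 cells of set B, and Satb1 reaches 10 CPM in 6 cells.

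On both sides, Irx3-positive cells were positive for Cnr1 and Dgkg more often than all cells of that side. The pattern was picked after the values were seen. Of the 11 Irx3-positive cells, which had 12.05 to 320.997 CPM, 10 were among the 24 positive for Cnr1 and 9 among the 15 positive for Dgkg, a diacylglycerol kinase gene. For the cadherin genes Cdh7 and Cdh8 these numbers were 9 of 23 and 6 of 9. Among the 56 Irx3-positive cells of the Pou4f1-positive side, 23 were positive for Cnr1 (25.6% of all were) and 14 for Dgkg (10% of all were). Cdh7 was positive in 11 of them, a smaller share than over all Pou4f1-positive cells, and Cdh8 in 8, a larger share. Cells with many positive genes lift such joint counts, and whether the sides differ in them was not tested.

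Across all genes, shares were compared for the 11282 genes positive in at least 10% of the cells of both sides together, with Pou4f1, Rbpms and Slc17a6 left out. The median difference was -7.70 percentage points plainly and -0.90 points after matching. In the direction of more positive Pou4f1-low cells, 4 genes passed 20 points both plainly and matched (0.0355% of those compared). In the direction of fewer, 29 genes passed both (0.257%), and 541 genes passed on plain shares alone (4.8%). A difference of 20 points is of the order of the width of an interval on 51 cells, so these numbers are not read as a count of genes that differ. Among the 33 genes, 13 overlap another annotated gene on the other strand and 11 on the same strand.

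The largest differences were of lower shares. Trarg1, which encodes a regulator of glucose transporter trafficking (chromosome 11, 76679808 to 76698664), was positive in 16 Pou4f1-low cells (31.4%, 19.1% to 45.9%) against 70% (64.98% to 74.7%; 66.6% matched). Its median was 0.397 CPM on one side and 87.7 CPM on the other, and it overlaps no annotated gene. Its share was lower in A, B, C and D, with 7 of 23 against 66.7%, 7 of 13 against 50 of 72, 0 of 7 against 36 of 46 and 1 of 7 against 18 of 26. The single Pou4f1-low cell of set E was positive. B3gat2, a glucuronosyltransferase gene of the HNK-1 carbohydrate pathway (chromosome 1, 23761753 to 23849158), was positive in 15 cells (29.4%, 17.5% to 43.8%) against 68.6% (61.1% matched). In set C the shares were nearly equal, with 5 of 7 against 33 of 46.

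Without set D and without cells under 3000 positive genes, an alternative chosen after the values were seen, the matched differences were -34.97 points for Satb1, -41.6 for Trarg1 and -39.7 for B3gat2. At 100 CPM in place of 10 they were -17.4, -28.6 and -1.37 points, and few cells of either side had B3gat2 at that level. Its positive cells had medians of 57.8 and 44.7 CPM. Over all genes that alternative without set D and cells of few positive genes gave 35 genes higher and 76 lower. With all cells these numbers were 4 and 29 (0.0355% and 0.257% of the 11282 compared), and the shares for the alternative are given in the section on processing.

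Of the 29 lower genes, 28 had the same direction in sets A and B, the sets with 8 or more Pou4f1-low cells. Plxna2, a semaphorin co-receptor gene, did not. These sets gave 23 and 13 of the 51 cells by which the genes were chosen, so such agreement is no separate support. Lamb1, a laminin gene, was positive in 27.5% against 61.1% (52.7% matched), and Hecw2, a ubiquitin ligase gene, in 23.5% against 55.3% (48.2% matched). Pde3a, a cyclic nucleotide phosphodiesterase gene, stood at 11.8% against 41.7% (34.5% matched), and Cpne4, a copine gene, at 13.7% against 42.8% (36.5% matched). Tox, an HMG-box factor gene, was at 27.5% against 57.8% (49.6% matched), and Tmem117 at 9.80% against 38.9% (31.9% matched). Chchd7, Bola2, Jakmip2, Fam169a and Ube2ql1 were also among the 15 lower genes of largest matched difference, with shares between 19.6% and 39.2% in the Pou4f1-low cells and between 49.2% and 74.7% in the others. Sema3e, a secreted guidance protein gene, was at 27.5% against 55% (48.6% matched).

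The 4 genes of higher share had the same direction in sets A and B, whose cells were part of the choice, so this is no separate support. Cnr1, which encodes the CB1 cannabinoid receptor (chromosome 4, 33924593 to 33948831), was positive in 24 Pou4f1-low cells (47.1%, 32.9% to 61.5%) against 25.6% (21.1% to 30.4%; 21.2% matched). Its share was higher in each set, with 9 of 23 against 51 cells (25.8%) in A, 7 of 13 against 22 of 72 in B and 5 of 7 against 11 of 46 in C. Gsn, an actin-severing protein gene, was positive in 41.2% against 20% (17.1% matched), but in 0 of 7 cells of set D and 0 of 1 of E. Nr2f2, the orphan nuclear receptor COUP-TFII, was positive in 41.2% against 20.3% (18.4% matched), and Ephb2, an ephrin receptor gene, in 37.3% against 16.9% (14.1% matched). Without set C none of the 4 passed 20 points both ways, and 0 genes of the 11304 then compared did.

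**Figure D4:**
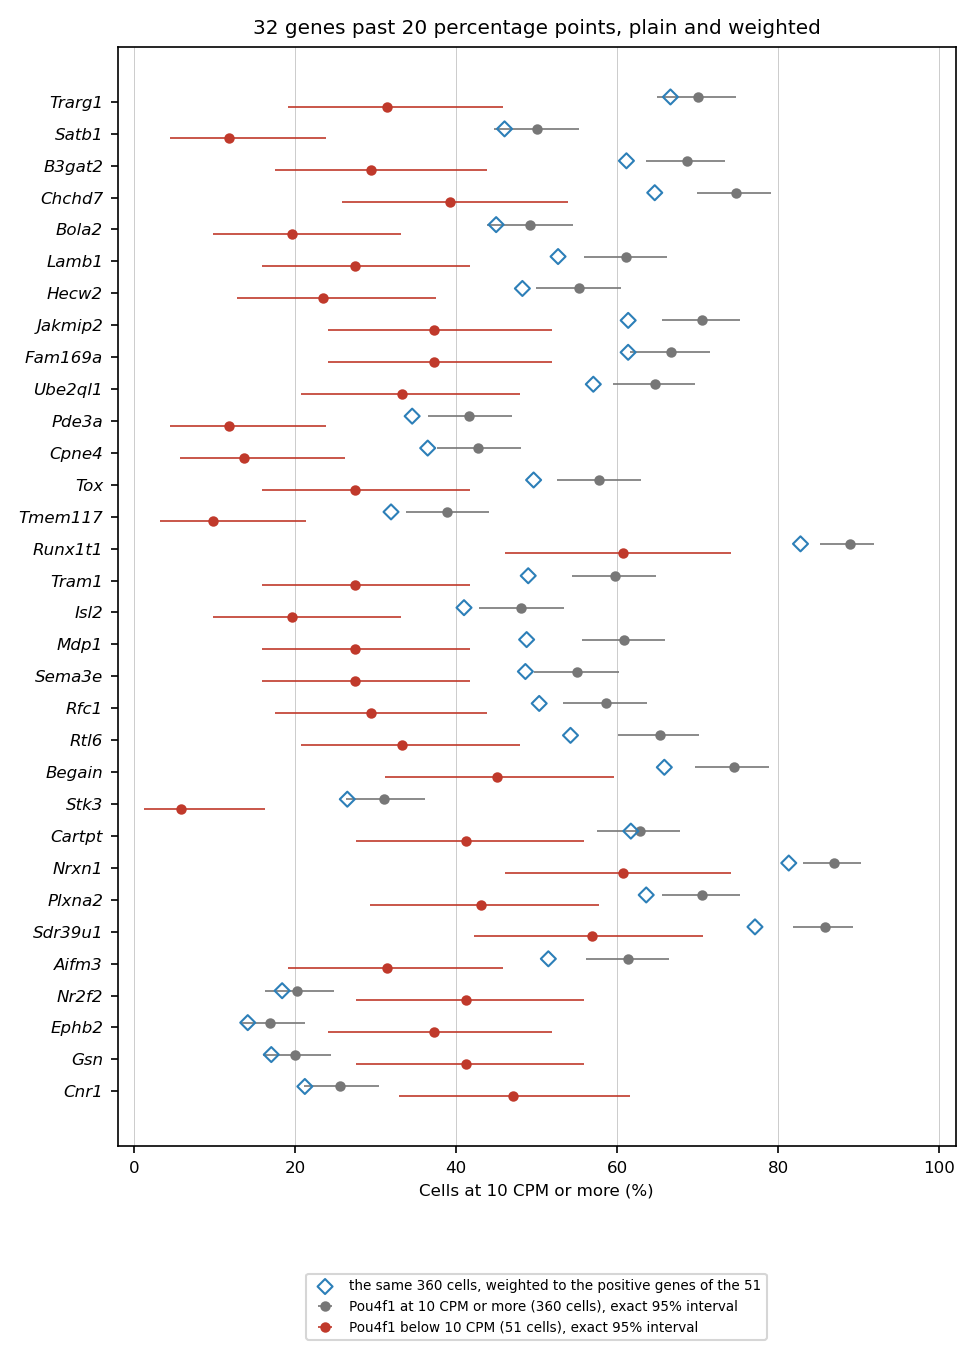
Shares of cells at 10 CPM or more (%) with exact 95% intervals for 28 of the 29 genes lower and the 4 genes higher by 20 percentage points plainly and matched, in Pou4f1-low cells (red), Pou4f1-positive cells (grey) and matched (blue diamonds). Trarg1, Satb1 and B3gat2 have the widest gaps, at 31.4%, 11.8% and 29.4% against 70%, 50% and 68.6%.

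For some genes the share also differed between levels of Pou4f1 above the limit of the rule, and for others it did not. The levels were 0 counts, above 0 and below 10, 10 to below 50, 50 to below 100, and 100 CPM and more. The lowest 3 levels held 14, 37 and 81 cells, and the highest 170. Medians of positive genes over the 5 levels were 4031, 5537, 6068, 6180 and 5625, and the shares by level are not matched for them. Satb1 was positive in 7.14%, 13.5%, 37.04%, 51.4% and 55.3% of them. For Opn4 the shares were 21.4%, 21.6%, 14.8%, 13.8% and 5.88%, so they were lower at high Pou4f1 also among Pou4f1-positive cells. Isl2 was at 21.4%, 18.9%, 41.98%, 51.4% and 48.8%. Trarg1 was nearly level above the limit, at 21.4%, 35.1%, 69.1%, 66.97% and 72.4%, and Gsn had no steady order there, at 42.9%, 40.5%, 16.05%, 23.9% and 19.4%. Right at the limit stood 15 cells at 5 to below 10 CPM and 19 at 10 to below 20 CPM. Satb1 was positive in 2 and 7 of them, Trarg1 in 6 and 14, B3gat2 in 4 and 9 and Gsn in 9 and 1. Not every gene had such a step there. Isl2 was positive in 4 cells of each level and Cartpt in 9 of each, Lamb1 in 10 and 7, and Cnr1 in 5 and 6. Eomes was positive in 4 of the 14 cells with 0 counts of Pou4f1 (28.6%) and in 2 of the other 37. Those 4 cells had 413.6, 532.5, 63.9 and 25.9 CPM of Eomes, beside 5645, 0.699, 0 and 21.8 CPM of Opn4. Only the first thus had Opn4 at a high level. The cells with 532.5 and 25.9 CPM of Eomes had 1685 and 1066 CPM of the alpha-class gene Spp1.

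**Figure D5:**
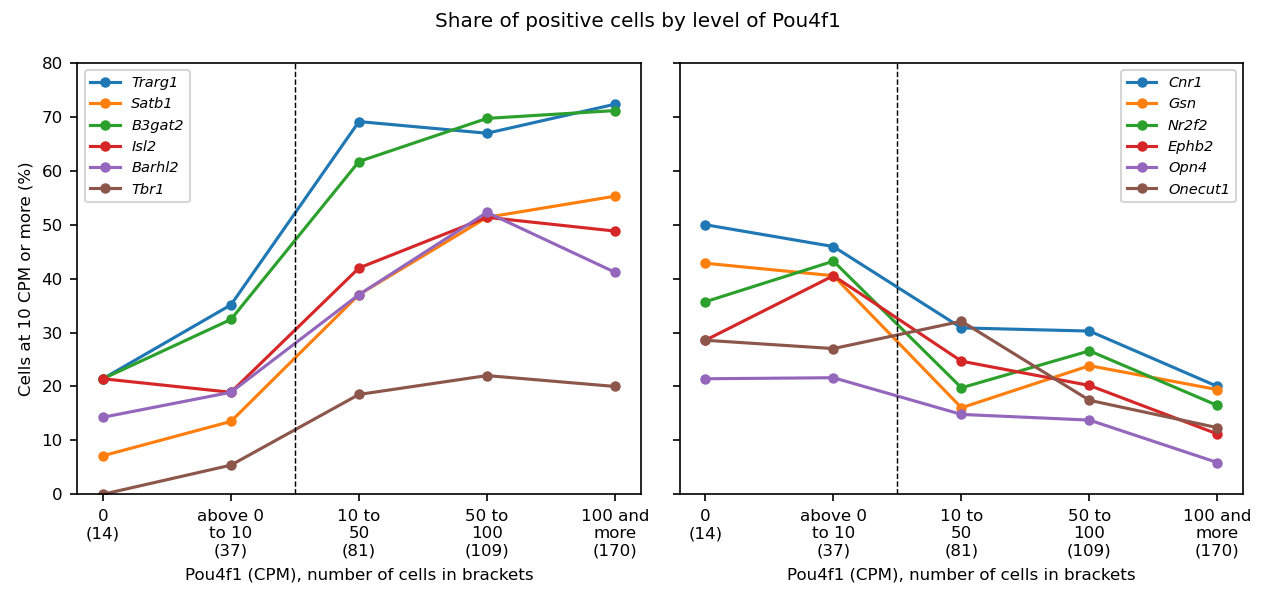
Share of cells at 10 CPM or more (%) for 12 genes over 5 levels of Pou4f1 (CPM, number of cells in brackets), with lower genes on the left and higher genes on the right; the dashed line marks the limit between the sides. Satb1 goes from 7.14% to 55.3% and Opn4 from 21.4% to 5.88%.

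Channel, receptor and guidance genes on the chosen lists stayed under the size limit. In the lists of sodium, potassium, calcium and HCN channels, of glutamate, inhibitory, acetylcholine and dopamine receptors, of adhesion and guidance molecules and of trophic receptors, 0 genes passed 20 points both plainly and matched. Each list held 6 to 14 compared genes. Over all genes compared 0.0355% passed higher and 0.257% lower, so a count of 0 in such short lists is not read as a result about them. Cnr1, Ephb2, Sema3e and Plxna2, given above, are receptor and guidance genes outside these lists that did. List medians of the matched difference lay between -3.51 points for the 12 GABA and glycine receptor genes compared and 2.01 for the 12 guidance genes, against -0.90 over all genes. Scn1a, a sodium channel gene, was positive in 90.2% against 98.1% (94.8% matched), and Kcnc1, a fast potassium channel gene, in 84.3% against 93.9% (90.1% matched). Ntrk2, the receptor gene for BDNF, was at 49.02% against 77.2% plainly but 66.4% matched, and Chrnb3, a nicotinic receptor subunit gene, at 76.5% against 96.7% (92.7% matched). The nicotinic subunit gene Chrna4 went the other way, at 52.9% against 42.2% (33.9% matched).

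Of the 9 neuropeptide and 11 calcium-binding genes compared, Cartpt alone passed both ways. Calb2, which encodes calretinin, was positive in 82.4% against 95.8% (95.7% matched), and its median was 293.2 CPM against 817 CPM. Hpcal4, a neuronal calcium sensor gene, was at 49.02% (34.8% to 63.4%) against 33.3% (28.5% to 38.5%; 26.9% matched), and Cdh7 at 45.1% against 28.3% (24.7% matched). For Hpcal4 and Cdh7 the matched difference was above 20 points and the plain one below. The injury gene Atf3 was positive in 9 cells (17.6%, 8.40% to 30.9%) against 9.44% (7.00% matched), and the immediate early gene Fos in 76.5% against 93.3% (88.9% matched).

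Genes of rods, bipolar cells, amacrine cells and Müller glia stood in Pou4f1-low and Pou4f1-positive cells at shares within 10 points of each other. At least 3 of 8 rod genes were positive in 62.7% and 61.4% (55.9% matched), 3 of 8 bipolar genes in 23.5% and 29.7% (23.8% matched), 3 of 8 amacrine genes in 19.6% and 26.9% (19.8% matched), and 3 of 8 Müller glia genes in 80.4% and 82.5% (75.7% matched). Cone genes were rarer in the Pou4f1-low cells, at 1.96% (0.0496% to 10.4%) against 12.5% (9.27% to 16.4%; 8.99% matched), with intervals that meet. Astrocyte shares were 3.92% and 5% (3.22% matched), and microglia shares 5.88% and 2.50% (1.97% matched). For vessels the share was 0% on both sides, where 3 counts of 51 would be 5.88% and the exact interval of 0 of 51 ends at 6.98%. The summed level of the amacrine genes had a median of 53.2 CPM (0 to 2610) in Pou4f1-low cells and 72.7 CPM (0 to 2675) in the others, and of the Müller genes 1231 CPM (143.5 to 9018) and 938 CPM (12.2 to 21140.2). Gad1, which makes the transmitter GABA in amacrine cells, was positive in 43.1% and 42.5%. The acetylcholine transporter gene Slc18a3 was positive in 0 of 51 cells, but Chat, of the same list, in 7, at up to 377.7 CPM. Over the 6 amacrine genes compared, matched differences ran from -7.36 to 8.12 points. Without the cells that had 3 or more bipolar or amacrine genes, 15 of them Pou4f1-low, 11 genes were higher and 98 lower. With all cells these numbers were 4 and 29 (0.0355% and 0.257% of the 11282 compared). The shares for the alternative are given in the section on processing. What such RNA adds to single shares was not tested.

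The 250 bases before the RefSeq start (GRCm38.p6) were searched on both strands in the 18 of 29 lower genes and 4 of 4 higher genes found in the promoter table. A gene was counted where any of its windows held the letters, while the shares over all windows count single windows. These measures differ. The letters ATAATTAAT, chosen as a Brn3-type site, were found for 0 of the 18 and 0 of the 4 genes, and in 0.259% of all 32851 windows. The shorter ATTAAT is part of it and was chosen after the values were seen. It was found for 2 of the 18 genes (Cpne4 and Sema3e) and in 4.39% of all windows. For each of these 2 genes, the only ones among the 18 and the 4 with a match, the first matching window is shown, with the match in capitals. The windows lie at mm10 chr9:104569405-104569654 (plus strand) and chr5:14025026-14025275 (plus strand). A match is a run of letters, and nothing in these data shows binding there.
Cpne4: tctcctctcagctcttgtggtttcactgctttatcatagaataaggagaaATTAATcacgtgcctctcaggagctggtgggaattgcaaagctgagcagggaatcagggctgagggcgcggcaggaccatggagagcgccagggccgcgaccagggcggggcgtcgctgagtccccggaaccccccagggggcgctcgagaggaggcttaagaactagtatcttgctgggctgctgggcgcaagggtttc
Sema3e: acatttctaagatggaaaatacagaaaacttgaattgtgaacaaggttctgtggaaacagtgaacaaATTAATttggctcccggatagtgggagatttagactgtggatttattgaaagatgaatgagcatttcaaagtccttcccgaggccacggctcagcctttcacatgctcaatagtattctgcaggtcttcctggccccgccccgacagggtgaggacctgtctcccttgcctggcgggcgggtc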

How the data were processed

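The authors deposited 1 table of estimated counts, with 55450 genes and 92 ERCC spike-ins measured in every cell, of whose values 1.36% are not whole. STAR 2.7.0 and the mm10 build are listed in the submitters' processing notes, and the counting tool was not given in the sources used here. Per the labels' protocols, reads were 150-base pairs. A deposited key ties library names to cells and holds names only, and 0 table entries stayed unmapped. Here the estimated counts were scaled to CPM without spike-ins.

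Members, gene lists (32 lists, 279 genes, at most 14 in each) and alternatives were chosen with earlier results of these data known. The text names list genes and, for each direction, the 15 genes of largest matched difference past 20 percentage points plainly and matched that had 1 sign in every library name set with at least 8 cells on each side. Some genes this rule allows are not reported here. Plxna2, Sema3e and Dgkg are named outside this rule, after their values were seen. Shares carry exact Clopper-Pearson 95% intervals, and 0 of 51 carries the limit of 3 counts. Gene positions come from GENCODE mouse release 21. The size rule was run on simulated data in which each gene's values were shuffled over the cells of both sides. Such shuffling removes their difference in positive genes, so it cannot show how the matching deals with that difference. Cells were patched singly, so doublets were not called, and no pair of cells looked like 1 library, the highest correlation being 0.669. Alternatives covered thresholds, depth (thinning to 1000000 counts), weights, and sets or cells left out. Tools were matplotlib 3.10.9, pandas 2.3.3, scipy 1.17.1 and numpy 2.4.6 under Python 3.11.15.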

Additional observations from a re-analysis of the deposited data

How the results depend on the processing

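The share of Pou4f1-low cells was 6.57% with a limit of 1 CPM of Pou4f1 and 58.6% with 100 CPM. Medians of positive genes in Pou4f1-low and Pou4f1-positive cells were 6313 and 7147 at 1 CPM and 2006 and 2144.5 at 100 CPM, and 6075 for the latter without ribosomal RNA loci in the totals.

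Shares of compared genes past the size limit moved widely around 0.0355% higher and 0.257% lower, and the cause was not tested. They were 0.0232% higher (3 genes) at 1 CPM, 0.0193% and 0.618% (1 and 32 genes) at 100 CPM, 4.80% lower on plain shares, 0.0882% and 1.73% with a limit of 1 CPM of Pou4f1, 0.253% and 0.549% (29 and 63) in cells with at least 3000 positive genes, 0.102% and 0.905% (11 and 98) without cells that had bipolar or amacrine genes, 3.92% lower with weights by set, and 0.0975% and 1.52% for a difference of 1 in mean log2(CPM + 1). Leaving out set A gave 0.140% and 1.43%, B 0.0705% and 0.749% (8 and 85), C 0% and 0.407% (0 and 46), and D 0.0968% higher (11). Against only comparison cells of 50 CPM or more 0.0533% were higher (6), and without set D and cells under 3000 positive genes 0.304% and 0.660% (35 and 76); both were added after seeing the data. Of the 29 lower genes, 13 also passed at 1 CPM, 3 at 100 CPM and 22 after thinning. Among list genes the 0 higher and 3 lower became 11 lower on plain shares, 1 higher at the 1 CPM limit, 3 and 6 at 3000 positive genes, 1 higher without the other-cell genes, 10 lower by set weights, 5 and 6 without A, 5 lower without B, 2 and 14 on the log2 scale, and 3 and 6 without set D and cells of few genes.

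The 33 genes past 20 points both ways kept the direction of their difference in 16 settings, except Chchd7, at 1.94 points with 100 CPM. These differences were matched, except that the plain-share setting gave the plain difference and the setting by set weights one weighted by set. That of Satb1 ran from -38.3 to -17.4 points and passed 20 points in 15 settings, as did B3gat2 and Cnr1, and Trarg1 did in 16. The tally takes this difference alone and not the rule of passing both ways, which Cnr1 did not meet without set C. The 33 genes were chosen in these same cells, which the settings reuse in whole or in part. Keeping a direction is therefore no separate support for a gene.

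Class shares followed the threshold. At 1 CPM the Pou4f1-positive shares were 28.9% for melanopsin, 75.8% for alpha, 57.5% for direction-selective (47.1% in Pou4f1-low cells), 13.3% for F-RGC and 31.1% for T-RGC genes. At 100 CPM Pou4f1-low and Pou4f1-positive shares were 5.88% and 0.278% for melanopsin, 25.5% and 28.9% for alpha, 9.80% and 19.4% for direction-selective, 0% and 0.556% for F-RGC and 0% and 2.22% for T-RGC genes. Without set A they were 32.1% and 41.4% for alpha, 8.02% for F-RGC in Pou4f1-positive and 0% for T-RGC in Pou4f1-low cells. No paired analysis was possible because all cells are 1 group. Counting error on 51 cells limits every share given here.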
